A study of Homo sapiens with 40 samples.

Results

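The genes described here are 10 interferon-stimulated genes outside the chemokines and antigen presentation, IRF9, IRF1, NMI, MX1, OAS1, ISG20, IFITM3, IFI44L, UBE2L6 and PARP9. Their probes were chosen by symbol. Every probe whose only gene symbol in the platform annotation was one of these names was used, and probes were averaged per gene. This gave 27 of 15246 probes and 10 of 4604 genes, and all 10 genes had a value on all 40 arrays. OAS1 had 6 probes, ISG20 and PARP9 had 4 each, IRF9 and MX1 had 3 each, IRF1 and IFITM3 had 2 each, and NMI, IFI44L and UBE2L6 had 1 each.

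The study asked how cytokine and NF-kB signalling act on gene expression in OCI-Ly3 and OCI-Ly10, established human lines of diffuse large B cell lymphoma, of its activated B cell-like subgroup. Each spotted array set Cy5-labelled cDNA of treated cells against Cy3-labelled cDNA of control cells of the same line, so every value is a ratio of treated over control. In the first of 6 experiments, 10 arrays followed OCI-Ly3 with 50 ng/ml IL-10 for 1, 3, 6, 24, 48 and 96 h, and in the second 8 arrays followed OCI-Ly10 with 50 ng/ml IL-6 for 0.5, 1, 3, 6 and 24 h, each over untreated cells. JAK inhibitor I, which blocks the Janus kinases, was given to OCI-Ly10 at 5 uM (3 and 6 h, 4 arrays) against untreated cells. A pool of STAT3 siRNAs at 4 uM was electroporated into OCI-Ly10 (8, 24 and 48 h, 5 arrays), against cells electroporated with no siRNA. An IkB super-repressor, a form of the NF-kB inhibitor IkB alpha that resists degradation, was induced with 20 ng/ml doxycycline. It was followed on 9 OCI-Ly3 arrays (1, 1.5, 2, 3, 4 and 6 h) and 4 OCI-Ly10 arrays (1.5, 3, 6 and 24 h). Its controls were cells of the same transfected line, and the labels do not say whether each line is 1 clone. A non-targeting siRNA and doxycycline without the super-repressor are not among the arrays, so what siRNA or doxycycline do by themselves cannot be told apart from what the target does. JAK inhibitor I was set against untreated cells, so any effect of its solvent cannot be told apart from that of the inhibitor. IL-10 was measured in OCI-Ly3 alone and IL-6 in OCI-Ly10 alone, so cytokine and line cannot be told apart either.

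As background, interferons bind receptors at the cell surface that signal through Janus kinases and STAT proteins. Type I interferon assembles the complex ISGF3, of which IRF9 is a part and which binds the interferon-stimulated response element (ISRE), and type II interferon acts in part through IRF1. STAT proteins can also bind palindromic sites. IL-6 and IL-10 use the same kinases but act mainly through STAT3. In activated B cell-like lymphoma, NF-kB and STAT3 are commonly active.

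The members lie on 9 chromosomes, and coordinates are those of RefSeq on GRCh38.p14. The transcription factors and their partner are IRF9 (chr14:24161265-24166565), the DNA-binding part of ISGF3, IRF1 (chr5:132481609-132490773), a factor induced early by interferon and cytokines, and NMI (chr2:151270470-151289668), a protein that binds STATs. The antiviral effectors are MX1 (chr21:41420558-41459214), a dynamin-like GTPase, OAS1 (chr12:112906962-112933219), which makes the oligoadenylates that switch on RNase L, ISG20 (chr15:88635632-88656483), an RNA exonuclease, IFITM3 (chr11:319676-320860), a membrane protein that blocks fusion of viruses in endosomes, and IFI44L (chr1:78620448-78646145), an interferon-induced gene used as a marker of the type I response. The modifiers of other proteins are UBE2L6 (chr11:57551662-57567935), the conjugating enzyme for the ubiquitin-like protein ISG15, and PARP9 (chr3:122527924-122564784). PARP9 is a member of the PARP family that works with the ubiquitin ligase DTX3L. Where a probe lies within its transcript is not given in the sources used here.

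The promoters of 6 members are shown because they hold letter matches to motifs of the kinds named above. These are STAT-like matches in IRF1 and IRF9, and ISRE-like matches in ISG20, IFITM3, IFI44L and PARP9. Whether the treatments act through them was not tested. Each is the 250 bases before an annotated start, on the gene's strand, from the RefSeq promoter table (GRCh38.p14). Capitals mark matches, on either strand, to the ISRE-like motif GAAANNGAA, the STAT-like palindrome TTCNNNGAA and the NF-kB consensus. The windows are chr5:132490774-132491023 (minus strand) for IRF1, chr14:24161015-24161264 (plus) for IRF9, chr15:88638766-88639015 (plus) for ISG20, chr11:320861-321110 (minus) for IFITM3, chr1:78620198-78620447 (plus) for IFI44L and chr3:122564301-122564550 (minus) for the second listed start of PARP9.
IRF1: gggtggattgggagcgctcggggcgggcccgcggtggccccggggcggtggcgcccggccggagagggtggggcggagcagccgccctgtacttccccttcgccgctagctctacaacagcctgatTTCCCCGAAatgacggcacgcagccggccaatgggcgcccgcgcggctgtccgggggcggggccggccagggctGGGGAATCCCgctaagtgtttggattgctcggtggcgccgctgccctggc
IRF9: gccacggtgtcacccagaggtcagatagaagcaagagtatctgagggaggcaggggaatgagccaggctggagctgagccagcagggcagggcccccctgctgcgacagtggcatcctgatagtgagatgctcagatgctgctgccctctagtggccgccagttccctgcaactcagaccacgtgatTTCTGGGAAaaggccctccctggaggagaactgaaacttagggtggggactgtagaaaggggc
ISG20: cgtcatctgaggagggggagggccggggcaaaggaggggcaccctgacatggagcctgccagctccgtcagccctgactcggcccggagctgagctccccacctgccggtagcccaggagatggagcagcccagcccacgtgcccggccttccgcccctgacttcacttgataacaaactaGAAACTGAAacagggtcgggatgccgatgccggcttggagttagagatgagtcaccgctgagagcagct
IFITM3: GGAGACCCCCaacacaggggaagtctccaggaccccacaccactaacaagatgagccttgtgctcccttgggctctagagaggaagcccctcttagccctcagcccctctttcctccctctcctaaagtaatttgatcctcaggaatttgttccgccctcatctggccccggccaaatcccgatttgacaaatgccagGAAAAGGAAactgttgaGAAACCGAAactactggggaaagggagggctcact
IFI44L: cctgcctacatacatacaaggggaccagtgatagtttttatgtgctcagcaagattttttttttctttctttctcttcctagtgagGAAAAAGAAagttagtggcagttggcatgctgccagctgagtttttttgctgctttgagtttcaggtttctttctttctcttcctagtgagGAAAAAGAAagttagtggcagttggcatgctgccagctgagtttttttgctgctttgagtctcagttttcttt
PARP9: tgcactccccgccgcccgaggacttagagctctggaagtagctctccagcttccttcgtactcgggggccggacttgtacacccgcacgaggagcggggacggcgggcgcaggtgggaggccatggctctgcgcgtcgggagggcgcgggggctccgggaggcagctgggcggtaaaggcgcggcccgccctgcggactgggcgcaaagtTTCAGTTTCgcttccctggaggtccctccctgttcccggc
In IRF1 the STAT-like match lies at -124 to -116 and the NF-kB match at -50 to -41 from the start. IFITM3 holds ISRE-like matches at -52 to -44 and at -35 to -27, and an NF-kB match at -250 to -241, the edge of the window. IFI44L holds ISRE-like matches at -164 to -156 and at -73 to -65.

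All 10 members were in the table, with 14 starts among them. The ISRE-like motif was found for 6 of the 10 members (NMI and MX1 besides those printed), the STAT-like palindrome for 4 (OAS1 and MX1 besides those printed) and the NF-kB consensus for 2. Of all 35116 promoter windows of the same length, 6.88% held the ISRE-like motif, 6.57% the STAT-like palindrome and 5.21% the NF-kB consensus. These shares are per window, whereas the member counts are per gene over all of its starts, so the units differ. In MX1 both motifs were in the window of 1 of its 3 starts, where they share bases (-195 to -187 and -189 to -181). UBE2L6 had none of the 3 motifs in its windows. A match is a description of letters and not a site shown to be bound.

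The deposited log ratios were read as log2, since their base is not stated. A gene was tested on its mean log2 ratio over a window of times with limma, with Benjamini-Hochberg adjustment over all genes tested, and "rose" and "fell" are used where the adjusted p was under 0.05. Values are means over time points ± SE unless said otherwise. Replicates are not labelled as separate cultures, and p-values thus reflect only how far arrays scatter. In the main fit that scatter was pooled per gene over the arrays of all experiments. An SE or p-value of an experiment is thus not drawn from the spread of its own arrays alone, which can be wider or narrower. Testing a ratio against 0 does not count how control RNA varies, and without dye swaps any dye bias of a gene remains. Array identifiers fell into 12 consecutive runs, and a fit with the run as a random block is given where it changes a call. In bulk RNA, fewer expressing cells and less RNA per cell cannot be told apart. The knockdown was seen in every siRNA array: the STAT3 ratio was -1.99 (8 h), -1.46 and -2.26 (24 h) and -1.74 and -0.89 (48 h). NFKBIA, an NF-kB target whose probes could also detect the introduced super-repressor, lay between -2.27 and -0.71 on the 7 OCI-Ly3 super-repressor arrays from 2 h on. Being ratios, the values do not show whether the B cell, T and NK cell or myeloid markers were expressed.

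IL-10 moved most of these genes in OCI-Ly3. IFITM3 (0.99 ± 0.06), PARP9 (0.80 ± 0.06) and ISG20 (0.63 ± 0.04) rose most, UBE2L6, NMI, IRF9 and IRF1 rose by less, and MX1 and IFI44L fell. Over 1 to 96 h, 7 of 10 members rose and 2 fell, where 16.1% of the 4383 genes tested were called higher and 19.2% lower. The share of members that fell (20%) was thus near that of all genes. The members' median was 0.27, beside -0.02 for all genes tested. The members were chosen with earlier results of these data known. Here and below, their counts and medians beside those of all genes are thus descriptions and not a test of the group.

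**Figure D1:**
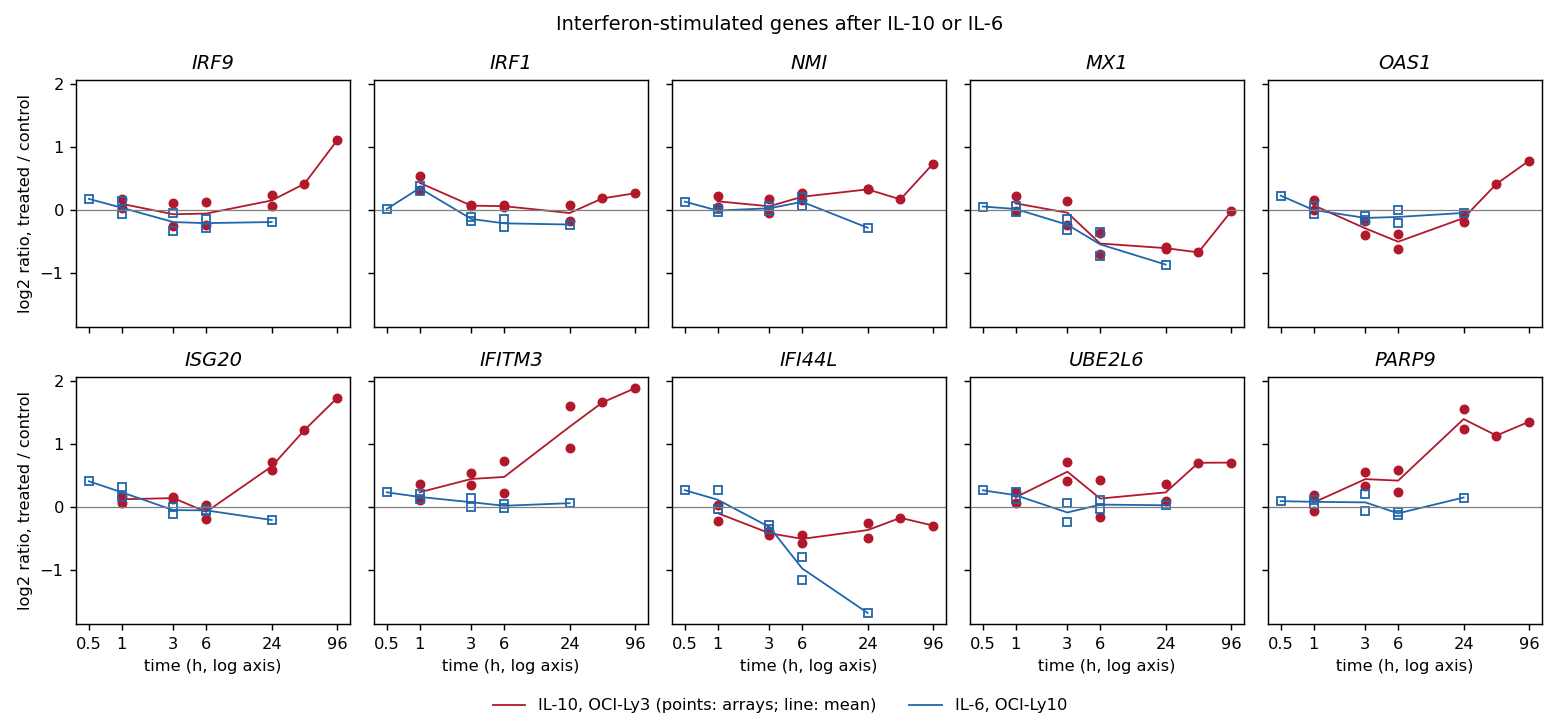
Log2 ratio of treated over control (vertical axis) against time in hours (log axis) for each of the 10 genes; each point is 1 array and lines join the means. After IL-10 in OCI-Ly3 (red) IFITM3, PARP9 and ISG20 are highest from 24 h on, while after IL-6 in OCI-Ly10 (blue) IFI44L reaches -1.68 and MX1 -0.86 at 24 h.

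Among the transcription factors, IRF9 was at 0.17 and 0.03 at 1 h, 0.11 and -0.25 at 3 h, 0.12 and -0.23 at 6 h, 0.06 and 0.24 at 24 h, 0.41 at 48 h and 1.10 at 96 h. It lay on both sides of 0 up to 6 h and was far higher on the 96 h array than on any other. Its mean over all times was 0.27 ± 0.06 (adjusted p = 9.39e-04 by limma), and without the 96 h array it was 0.11 (adjusted p = 0.181). IRF1 was at 0.32 and 0.55 at 1 h, 0.06 and 0.08 at 3 h, 0.08 and 0.04 at 6 h, -0.17 and 0.07 at 24 h, 0.18 at 48 h and 0.27 at 96 h. Its highest values were thus the 2 arrays at 1 h. The mean of IRF1 was 0.16 ± 0.05 (adjusted p = 0.0156), it missed the threshold once runs were blocked (adjusted p = 0.0682) and its probes gave -0.01 and 0.32. NMI had its lowest array at -0.05, its median at 0.20 and its highest, at 96 h, at 0.73. It rose by 0.27 ± 0.05 (adjusted p = 4.18e-04, above 0 on 9 of 10 arrays), and by 0.18 without the 96 h array.

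Of the antiviral effectors, IFITM3 was at 0.36 and 0.11 at 1 h, 0.54 and 0.34 at 3 h, 0.72 and 0.23 at 6 h, 1.60 and 0.94 at 24 h, 1.65 at 48 h and 1.88 at 96 h. It was above 0 on 10 of 10 arrays (adjusted p = 3.27e-10), and all 4 arrays from 24 h on lay above all 6 earlier ones. Both of its probes rose (0.94 and 1.04), though they may also read the similar transcripts of its close relatives, of which IFITM1 was at 0.67 ± 0.05. ISG20 was at 0.18 and 0.07 at 1 h, 0.16 and 0.12 at 3 h, 0.04 and -0.19 at 6 h, 0.58 and 0.71 at 24 h, 1.22 at 48 h and 1.73 at 96 h. It stayed near 0 up to 6 h and every later array lay above every earlier one (adjusted p = 5.54e-10 for the whole course). Its mean was 0.41 without the 96 h array (adjusted p = 5.54e-07).

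MX1 took another course, with 0.22 and -0.01 at 1 h, 0.15 and -0.24 at 3 h, -0.36 and -0.70 at 6 h, -0.59 and -0.62 at 24 h, -0.67 at 48 h and -0.02 at 96 h. It was low on all 5 arrays from 6 to 48 h and close to the control on the 96 h array. Over the whole course MX1 fell by 0.29 ± 0.06 (adjusted p = 4.96e-04), and its 3 probes lay between -0.39 and -0.16. IFI44L was below 0 on 9 of 10 arrays, with a lowest array of -0.57, a median of -0.34 and a highest of 0.03. It fell by 0.31 ± 0.08 (adjusted p = 0.00696). With the mean of the other 5 experiments subtracted it was at -0.25 and was not called (adjusted p = 0.0795). OAS1 was low at 6 h (-0.39 and -0.62) and high at 48 h (0.41) and 96 h (0.78), which left a mean of 0.06 ± 0.05 (adjusted p = 0.376).

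UBE2L6 had its lowest array at -0.16, its median at 0.39 and its highest at 0.71, and it rose by 0.41 ± 0.07 (adjusted p = 1.59e-04, 9 of 10 arrays). Of its arrays at 3 h (0.71 and 0.40), the higher lay level with those at 48 and 96 h (0.70 each). PARP9 was at 0.20 and -0.06 at 1 h, 0.55 and 0.33 at 3 h, 0.59 and 0.24 at 6 h, 1.55 and 1.23 at 24 h, 1.13 at 48 h and 1.35 at 96 h. The 4 late arrays all lay above 1 and the 6 earlier ones all below 0.6 (adjusted p = 1.44e-09 for the whole course). The 4 PARP9 probes disagreed: 3 lay above 0, the highest at 1.20, and 1 lay at -0.12.

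The late arrays (24 to 96 h) were set against the early ones (1 to 6 h) in the same fit. IFITM3, ISG20, PARP9, OAS1 and IRF9 were higher late, and 0 members were lower, where 8.04% of 4354 genes were called higher and 5.63% lower. IFITM3 averaged 1.60 late and 0.38 early, a difference of 1.22 ± 0.12 (adjusted p = 9.95e-07). ISG20 averaged 1.20 late and 0.06 early, a difference of 1.13 ± 0.08 (adjusted p = 1.62e-08). PARP9 averaged 1.29 late and 0.31 early, a difference of 0.98 ± 0.11 (adjusted p = 4.06e-06). In these 3 genes the late and early arrays did not overlap. The share of all genes tested without such overlap was not counted, so this is a description of the values.

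**Figure D2:**
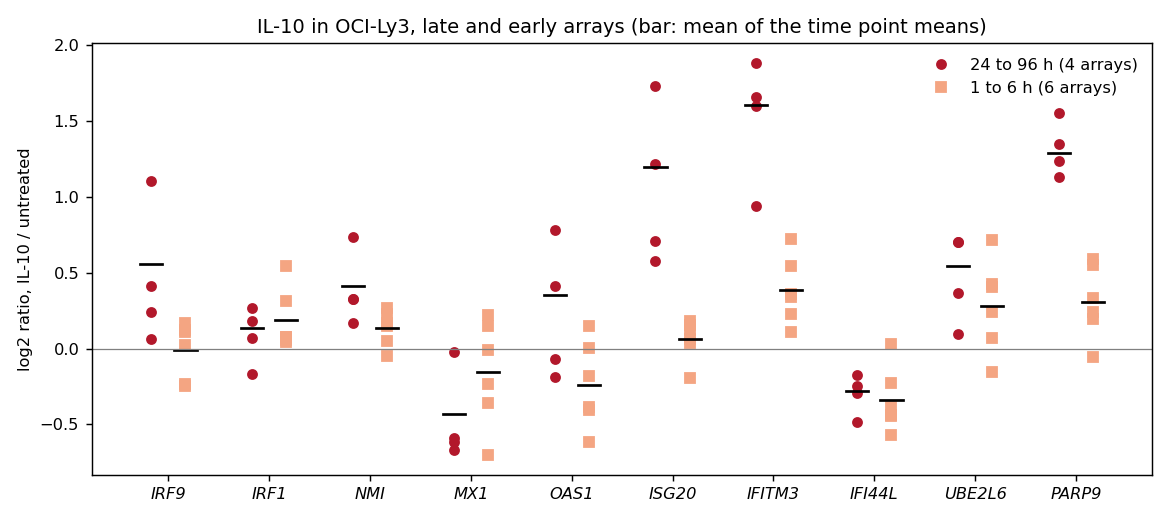
Log2 ratio of IL-10 over untreated OCI-Ly3 cells (vertical axis) for each gene, late arrays (circles, 24 to 96 h) left of early arrays (squares, 1 to 6 h), with bars at the means of the time points. For IFITM3, ISG20 and PARP9 every late array lies above every early one, and for IRF9 and OAS1 they overlap.

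OAS1 averaged 0.35 late and -0.24 early, a difference of 0.59 ± 0.10 (adjusted p = 2.95e-04), or 0.38 without the 96 h array (adjusted p = 0.0371). IRF9 averaged 0.56 late and -0.01 early, a difference of 0.57 ± 0.11 (adjusted p = 0.00175), or 0.29 without the 96 h array (adjusted p = 0.196). The difference was 0.27 ± 0.10 for NMI (adjusted p = 0.0870, or 0.0434 with the replicate block), -0.28 ± 0.11 for MX1 (adjusted p = 0.122), 0.26 ± 0.14 for UBE2L6, 0.06 ± 0.16 for IFI44L and -0.05 ± 0.10 for IRF1. The difference of MX1 was -0.48 without the 96 h array (adjusted p = 0.0205) and -0.16 without the 48 h array (adjusted p = 0.545). That of NMI was 0.11 without the 96 h array (adjusted p = 0.678) and 0.39 without the 48 h array (adjusted p = 0.0279). Late and early arrays thus differed upward in 5 members, 2 of which, OAS1 and IRF9, overlapped between the sets.

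Of 50 other genes of interferon signalling and response, all 50 were tested after IL-10. Of these 16 rose and 5 fell, with a median of 0.04. The highest were TRIM22, an antiviral ubiquitin ligase (0.79 ± 0.07), IFNGR1, a chain of the interferon gamma receptor (0.71 ± 0.05), and IFITM1 (0.67 ± 0.05). The lowest were SAMHD1, a dNTP hydrolase (-0.36 ± 0.05), IRF8, a factor of B and myeloid cells (-0.29 ± 0.06), and OAS2, a relative of OAS1 (-0.25 ± 0.07). Between late and early arrays 15 were higher and 1, the lysosomal reductase IFI30, was lower (-0.43 ± 0.12), a gene named after its value was seen. Of 6 B cell markers tested 1 rose and 2 fell, within -0.34 to 0.20. Among markers of other cells, 2 of 9 T and NK cell markers and 1 of 4 myeloid markers tested rose. In addition, 1 T and NK cell marker fell, and these markers lay within -0.18 to 0.60. Of all genes tested 16.1% were called higher and 19.2% lower. What part the markers had in the result was not tested.

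After IL-6 in OCI-Ly10, IFI44L and MX1 fell, as they did after IL-10 in OCI-Ly3, and 0 of 10 members rose. Over 1 to 24 h, 3.48% of 3301 genes were called higher and 1.06% lower, so 76.7% of the calls were higher, or 61.8% with arrays scaled to equal spread. The IFI44L ratio was 0.27 (0.5 h), 0.27 and -0.04 (1 h), -0.34 and -0.29 (3 h), -1.16 and -0.78 (6 h) and -1.68 (24 h). The means stepped down at each time from 1 h on. IFI44L fell by 0.71 ± 0.10 over 1 to 24 h (adjusted p = 3.20e-04), and by 0.39 without the 24 h array (adjusted p = 0.0393). The MX1 ratio was 0.05 (0.5 h), 0.07 and -0.03 (1 h), -0.32 and -0.14 (3 h), -0.73 and -0.35 (6 h) and -0.86 (24 h). It fell by 0.41 ± 0.07 (adjusted p = 0.00173), and by 0.25 without the 24 h array (adjusted p = 0.0481). With the MX1 probe that had the most values alone, the fall was 0.27 and was not called (adjusted p = 0.0694).

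The IRF1 ratio was 0.02 (0.5 h), 0.31 and 0.38 (1 h), -0.17 and -0.11 (3 h), -0.27 and -0.15 (6 h) and -0.23 (24 h). Both 1 h arrays were high and all 5 later ones were below 0, as a description of single times with no test. The mean over the window was -0.06 ± 0.06 (adjusted p = 0.584). The other 7 members had means between -0.14 (IRF9) and 0.08 (IFITM3), none of them called. PARP9 was at 0.05 ± 0.07 and ISG20 at -0.02 ± 0.05. Of 42 further interferon genes tested 0 rose and 3 fell: SAMD9L, an antiviral factor (-0.40 ± 0.08), OAS2 (-0.34 ± 0.09) and OAS3 (-0.31 ± 0.06), both relatives of OAS1.

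At the times that both cytokines shared (1, 3, 6 and 24 h), PARP9, IFITM3 and ISG20 were higher after IL-10 in OCI-Ly3 than after IL-6 in OCI-Ly10, where 4.08% of 3259 genes were called higher and 4.48% lower. PARP9 averaged 0.58 with IL-10 and 0.05 with IL-6, a difference of 0.53 ± 0.09 (adjusted p = 5.17e-04). IFITM3 averaged 0.61 with IL-10 and 0.08 with IL-6, a difference of 0.53 ± 0.10 (adjusted p = 0.00159). ISG20 averaged 0.21 with IL-10 and -0.02 with IL-6, a difference of 0.23 ± 0.06 (adjusted p = 0.0327, and 0.219 with runs blocked). It was also lost when any 1 of 9 arrays was left out, at 0.160 without the IL-6 array at 24 h.

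MX1, which fell in both experiments, averaged -0.27 with IL-10 and -0.41 with IL-6, a difference of 0.14 with a 95% interval of -0.05 to 0.33. IFI44L averaged -0.35 with IL-10 and -0.71 with IL-6, a difference of 0.37 ± 0.13 (adjusted p = 0.0874, and 0.0101 with the replicate block), or 0.046 without the IL-6 array at 24 h (adjusted p = 0.897). The 5 other members differed by -0.14 (OAS1) to 0.23 (UBE2L6) and were not called.

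**Figure D3:**
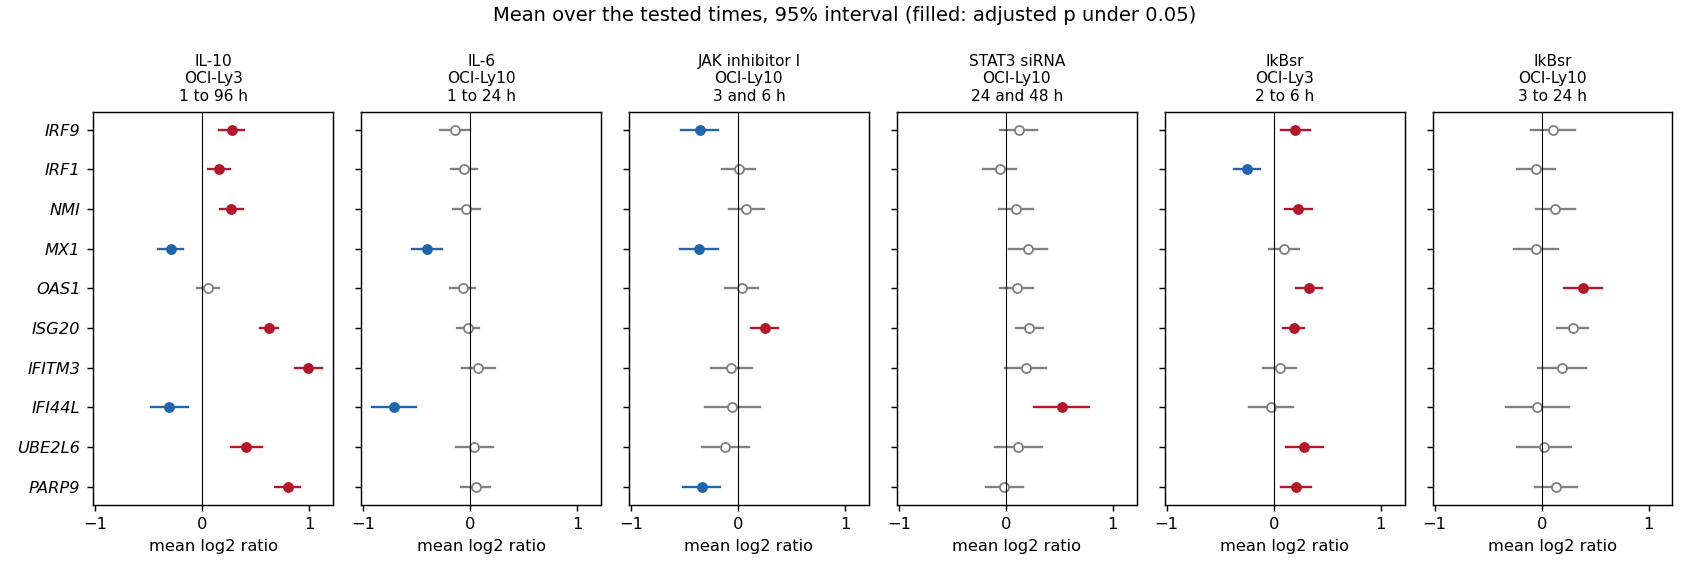
Mean log2 ratio over the tested times (horizontal axis) with its 95% interval for each gene in the 6 experiments; filled points had an adjusted p under 0.05, red above 0 and blue below. IL-10 in OCI-Ly3 has 9 filled points, the super-repressor (IkBsr) in OCI-Ly3 7, JAK inhibitor I 4, IL-6 2, and the siRNA and the super-repressor in OCI-Ly10 1 each.

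JAK inhibitor I in OCI-Ly10 lowered IRF9, MX1 and PARP9 and raised ISG20, all by small amounts. Of 10 members 3 fell and 1 rose, where 2.17% of 4480 genes were called lower and 1.09% higher. IRF9 was at -0.38 and -0.26 at 3 h and at -0.46 and -0.34 at 6 h, a mean of -0.36 ± 0.08 (adjusted p = 0.0213). MX1 was at -0.36 and -0.32 at 3 h and at -0.43 and -0.35 at 6 h, also a mean of -0.36 ± 0.08 (adjusted p = 0.0200). The 3 probes of each gene all lay below 0. PARP9 was at -0.19 and -0.25 at 3 h and at -0.39 and -0.54 at 6 h (mean -0.34 ± 0.08, adjusted p = 0.0264), with its 4 probes below 0.

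ISG20 was at 0.07 and 0.15 at 3 h and at 0.44 and 0.34 at 6 h (mean 0.25 ± 0.06, adjusted p = 0.0251). All 4 arrays of each of these 4 genes lay on 1 side of 0. IRF1 was below 0 at 3 h (-0.18 and -0.24) and above it at 6 h (0.32 and 0.13). IFI44L split by replicate, at -0.23 and 0.34 at 3 h and at -0.61 and 0.28 at 6 h. The remaining members lay between -0.12 (UBE2L6) and 0.08 (NMI).

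A fit that blocked on the run called MX1 alone (adjusted p = 0.0496), 0 members were called from the 4 inhibitor arrays alone, and leaving out any 1 array left 0 or 1 called. Of 49 other interferon genes 1 rose and 2 fell. WARS1, a tRNA synthetase induced by interferon gamma, rose by 0.64 ± 0.09. ISG20L2, a nucleolar exonuclease, fell by 0.36 ± 0.08 and the ubiquitin-like ISG15 by 0.30 ± 0.08.

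Both JAK inhibitor I and IL-6 were measured in OCI-Ly10 at 3 and 6 h, and their difference was called for 0 of 10 members, where 0.623% of 3531 genes were called higher and 1.44% lower (488 genes had an unadjusted p under 0.05). The labels do not say whether the 2 experiments shared control RNA. MX1 averaged -0.36 with the inhibitor and -0.39 with IL-6, a difference of 0.03 with a 95% interval of -0.22 to 0.28. IFI44L averaged -0.05 with the inhibitor and -0.65 with IL-6, a difference of 0.59 ± 0.17 (adjusted p = 0.0952, and 0.00844 with the replicate block), or 0.82 without the first inhibitor array at 6 h (adjusted p = 0.0104) and 0.37 without the second (adjusted p = 0.273). PARP9 averaged -0.34 with the inhibitor and -0.01 with IL-6, a difference of -0.33 with a 95% interval of -0.57 to -0.08 (adjusted p = 0.188).

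**Figure D4:**
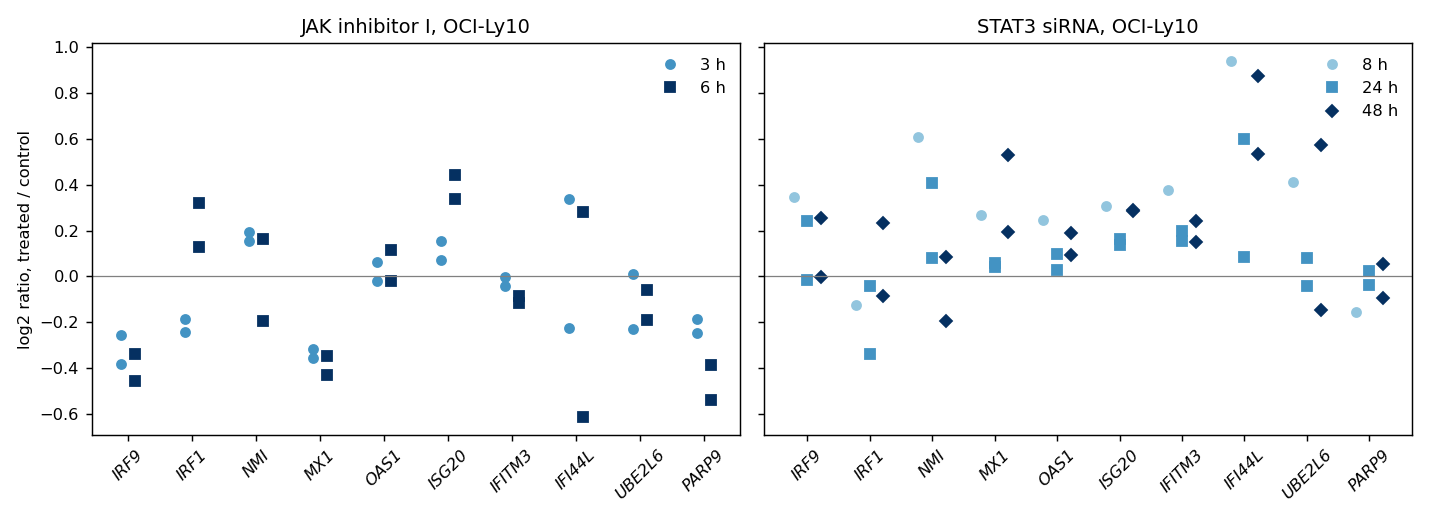
Log2 ratio of treated over control (vertical axis) for each gene and array, with JAK inhibitor I at 3 and 6 h on the left and STAT3 siRNA at 8, 24 and 48 h on the right. IRF9, MX1 and PARP9 lie below 0 on all 4 inhibitor arrays, and IFI44L lies above 0 on all 5 siRNA arrays.

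After STAT3 siRNA, IFI44L was the 1 member called, and it rose. Its ratio was 0.94 (8 h), 0.60 and 0.09 (24 h) and 0.87 and 0.53 (48 h), above 0 on every array. Over 24 and 48 h it rose by 0.52 ± 0.12 (adjusted p = 0.0256), where 1.27% of 4346 genes were called higher and 2.05% lower. The call was lost when runs were blocked (adjusted p = 0.0599), from the siRNA arrays alone (adjusted p = 0.305) and without the first array at 24 h (0.292) or either array at 48 h (0.122 and 0.0514).

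ISG20 (0.31 at 8 h, 0.16 and 0.14 at 24 h, 0.29 and 0.29 at 48 h) was above 0 on every array and missed the threshold (0.22 ± 0.06, adjusted p = 0.0513). MX1 averaged 0.21 ± 0.08 (adjusted p = 0.172) with probes from -0.21 to 0.53. The call of MX1 thus hung on the processing. It was called with the probe that had the most values (0.53, adjusted p = 0.00724) and with the mean of the other 5 experiments subtracted (0.41, adjusted p = 0.0160). The other 7 members had means between -0.06 (IRF1) and 0.19 (IFITM3). Of 50 further interferon genes 1 fell, PLSCR1, a phospholipid scramblase with antiviral activity (-0.49 ± 0.10), and 0 rose.

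Induction of the IkB super-repressor in OCI-Ly3 raised 6 members by 0.19 to 0.33 and lowered IRF1. Over 2 to 6 h, 9.16% of 4390 genes were called higher and 4.87% lower. The IRF1 ratio was -0.19 (1 h), -0.16 (1.5 h), -0.33 and -0.20 (2 h), -0.40 (3 h), -0.30 and -0.17 (4 h) and -0.22 and -0.0045 (6 h). It was lowest at 3 h and fell by 0.25 ± 0.06 over 2 to 6 h (adjusted p = 0.00847). Both probes were below 0, though the second had values on only 3 of the 7 arrays. With the IRF1 probe that had the most values alone, the ratio was -0.23 and was not called (adjusted p = 0.0529). The OAS1 ratio was 0.12 (1 h), 0.20 (1.5 h), -0.05 and 0.36 (2 h), 0.21 (3 h), 0.40 and 0.32 (4 h) and 0.68 and 0.49 (6 h). Its highest arrays were those at 6 h, it rose by 0.33 ± 0.06 (adjusted p = 0.00140) and all 6 probes were above 0.

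**Figure D5:**
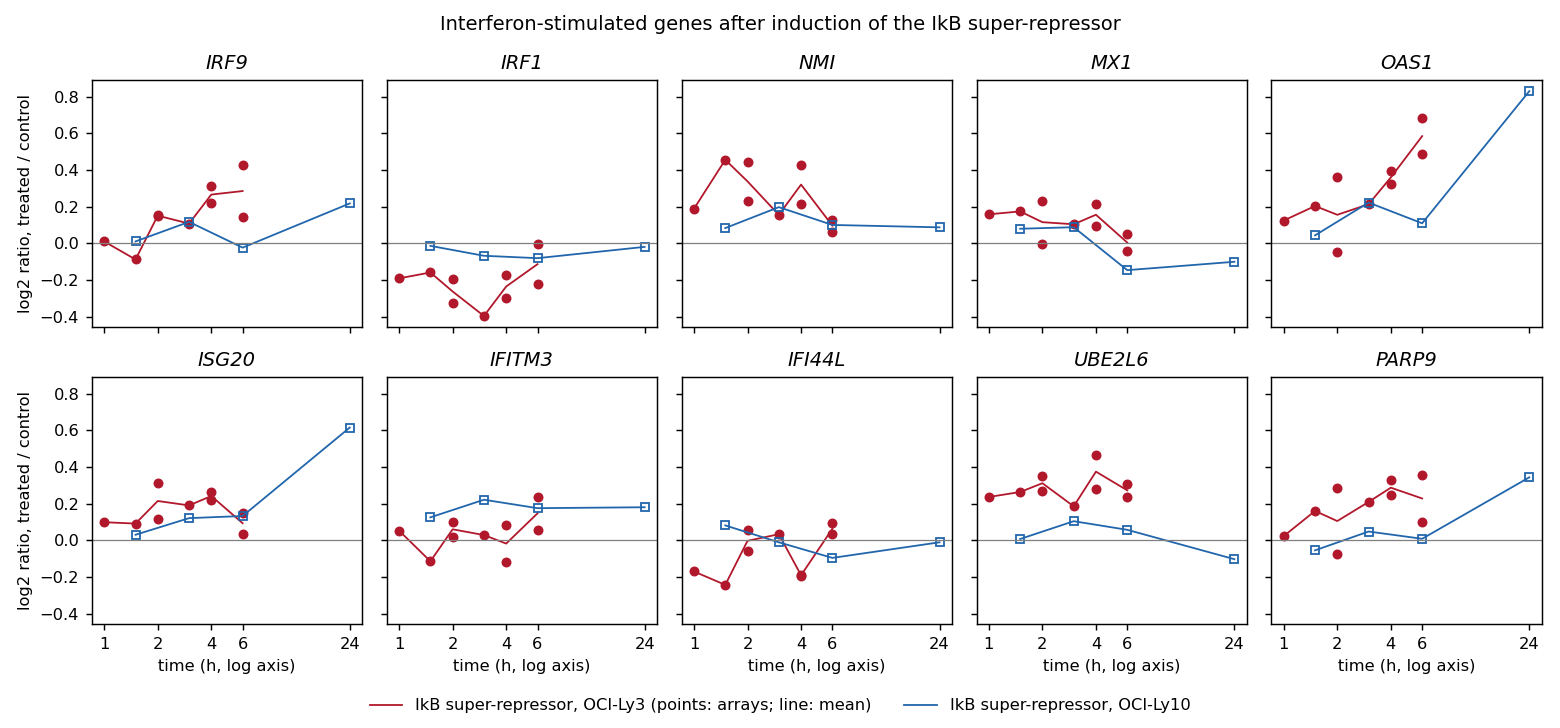
Log2 ratio of doxycycline-treated over control cells (vertical axis) against time in hours (log axis) for each gene, with OCI-Ly3 in red and OCI-Ly10 in blue; each point is 1 array and lines join the means. OAS1 is highest on the last arrays of both lines, and IRF1 lies below 0 on the OCI-Ly3 arrays up to 4 h.

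UBE2L6 lay between 0.19 and 0.47 over 2 to 6 h, above 0 on 7 of 7 arrays (mean 0.29 ± 0.08, adjusted p = 0.0288). NMI lay between 0.06 and 0.45 (mean 0.23 ± 0.06, adjusted p = 0.0182). IRF9 lay between 0.11 and 0.43 (mean 0.20 ± 0.07, adjusted p = 0.0475) and ISG20 between 0.04 and 0.31 (mean 0.19 ± 0.05, adjusted p = 0.0154), both above 0 on 7 of 7 arrays. PARP9 lay between -0.07 and 0.36 (mean 0.21 ± 0.06, adjusted p = 0.0403).

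MX1 (0.10 ± 0.07), IFITM3 (0.06 ± 0.07) and IFI44L (-0.02 ± 0.10) were not called, and the 3 MX1 probes ran from -0.20 to 0.39. MX1 was called higher with the probe that had the most values (0.39, adjusted p = 0.00436). It was also called with the mean of the other 5 experiments subtracted (0.28, adjusted p = 0.0237). A fit that blocked on the run called OAS1 alone (adjusted p = 0.0382). The replicate arrays at 2 h had a correlation of -0.02 across probes. Without them IRF9 (adjusted p = 0.0853), NMI (0.0903) and UBE2L6 (0.0839) were not called, and leaving out any 1 array left 2 to 7 members called. Of 50 further interferon genes 0 rose and 1 fell, ZC3HAV1, a protein that binds viral RNA (-0.32 ± 0.10).

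In OCI-Ly10 the super-repressor raised OAS1, whose ratio was 0.04 (1.5 h), 0.22 (3 h), 0.11 (6 h) and 0.83 (24 h). Over 3 to 24 h it rose by 0.39 ± 0.08 (adjusted p = 0.0408), where 0.221% of 4515 genes were called higher and 0.31% lower (41.7% of the calls higher, or 52.1% with arrays scaled to equal spread). Each time had 1 array, so the spread in this test comes from the other experiments. OAS1 was at 0.17 without the 24 h array (adjusted p = 1.00), and the call was also lost without the array at 3 h (0.0590) or 6 h (0.0528) and when runs were blocked (0.449).

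The ISG20 ratio was 0.03 (1.5 h), 0.12 (3 h), 0.13 (6 h) and 0.62 (24 h), a mean over 3 to 24 h of 0.29 ± 0.07 (adjusted p = 0.0720). IRF1 stayed between -0.08 and -0.01 on the 4 arrays. The other 7 members had means between -0.05 (MX1) and 0.19 (IFITM3), and 0 of 50 further interferon genes were called (293 of all genes had an unadjusted p under 0.05).

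Between the lines, at the shared times of 1.5, 3 and 6 h, 0 of 10 members differed, and 0% of 4384 genes were called higher or lower (108 had an unadjusted p under 0.05, and the smallest adjusted p was 0.994). IRF1 averaged -0.22 in OCI-Ly3 and -0.05 in OCI-Ly10, a difference of -0.17 with a 95% interval of -0.41 to 0.07. OAS1 averaged 0.33 in OCI-Ly3 and 0.13 in OCI-Ly10, a difference of 0.21 with an interval of -0.03 to 0.45.

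Across the means of the 26 time points of all 6 experiments, the members fell along different courses. These correlations are descriptions, since time points share lines and runs. IFITM3 and PARP9 were the most alike (r = 0.89), followed by ISG20 and IFITM3 (r = 0.85) and IRF9 and ISG20 (r = 0.79). MX1 and IFI44L were alike (r = 0.74), and MX1 and PARP9 had a weak negative correlation (r = -0.31).

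Of 4498 other genes, the 5 nearest to IRF1 were CXCR5, a chemokine receptor of B cells (r = 0.86), JUNB, a subunit of AP-1 (r = 0.74), PDZRN3 (r = 0.71), TNRC6C (r = 0.71) and GATA3 (r = 0.69). The 5 nearest to MX1 were POLA2, a subunit of DNA polymerase alpha (r = 0.85), the GTPase RAC2 (r = 0.84), SIVA1 (r = 0.78), STX5 (r = 0.77) and LAMP1 (r = 0.77), over the same 26 time points.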

How the data were processed

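Total RNA was isolated with Trizol, reverse transcribed from oligo-dT and labelled with Cy5 (treated) or Cy3 (control), per the labels. The authors deposited 1 log ratio per probe and array, read here as log2; the sources used here do not give background correction, normalization or the base of the log. The range of -7.868 to 5.81 does not settle base 2 against the natural base. Medians per array ran from -0.031 to 0.011, and each array gave values for 8862 to 14947 of the 15246 probes. The number of arrays limits the precision.

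Arrays were centred on their medians. The 10169 probes with 1 symbol in the platform annotation were averaged to 4604 genes, and 5073 probes with no symbol and 4 with several stayed out. With limma 3.58.1 in R 4.3.3, 1 mean per experiment and time point was fitted over all 40 arrays. Genes needed a value at each time point and on 75% or more of the arrays of a window. The threshold was an adjusted p of 0.05. The fit was tested on simulated data. Figures were drawn with matplotlib. Alternatives were arrays scaled to equal spread, values not centred, 1 probe per gene, a value on every array, each experiment alone, the mean of the other 5 experiments subtracted, the replicate or the run as a block, and arrays left out.

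Named genes were all 10 members, STAT3 and NFKBIA, up to 3 highest and 3 lowest called genes of the wider interferon list per window (50 genes in the files of 82 symbols listed), and the 5 genes nearest to IRF1 and to MX1 over at least 20 time points. The members, lists and tests were chosen with earlier results of these data known. The titles number the replicates. Differences between replicates 2 and 1 correlated between times at 0.376 to 0.577 (IL-10) and 0.193 to 0.269 (IL-6). These correlations were -0.319 to 0.320 for the super-repressor in OCI-Ly3, 0.300 for the siRNA and 0.203 for the inhibitor (1 value each). The replicate numbers were taken as pairing in the replicate block alone, a reading from the data. The main fit had no such block, so its p-values are unpaired.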

Additional observations from a re-analysis of the deposited data

Results flagged for a closer look

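In OCI-Ly3 the response to IL-10 differed between late (24 to 96 h) and early (1 to 6 h) arrays for 5 members, by a test of the difference itself (limma, Benjamini-Hochberg adjustment over 4354 genes). The late minus early difference was 1.22 for IFITM3 (adjusted p = 9.95e-07), 1.13 for ISG20 (adjusted p = 1.62e-08), 0.98 for PARP9 (adjusted p = 4.06e-06), 0.59 for OAS1 (adjusted p = 2.95e-04) and 0.57 for IRF9 (adjusted p = 0.00175). The late value was above 0 on 4 of 4 arrays for IFITM3, ISG20, PARP9 and IRF9 and on 2 of 4 for OAS1. At 48 and 96 h there was 1 array each, and IRF9 was not called without the 96 h array (0.29, adjusted p = 0.196).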

How the results depend on the processing

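In the alternatives that keep all arrays, the count of members called was 8 or 9 for IL-10 in OCI-Ly3, 4 to 6 for its late minus early difference, 2 to 4 for IL-10 minus IL-6 and 0 for the super-repressor between lines. Requiring a value on every array changed no call of a member. For the super-repressor in OCI-Ly3 (7 called), 3 were called with the experiment alone, 1 with the run as a random block and 4 without both 2 h arrays. With the mean of the other 5 experiments subtracted 3 were called, among them MX1, which the main fit did not call. For the inhibitor (4 called) the counts were 0 alone, 3 with the other experiments subtracted, 2 with the probe that had the most values and 1 with the run as a block. With the other experiments subtracted, MX1 was not called for the inhibitor (-0.27, adjusted p = 0.113). IFITM3 was called lower there (-0.36, adjusted p = 0.0494). For IL-6 (2 called) the counts were 4 with the other experiments subtracted and 1 with that probe. For the siRNA (1 called) they were 0 alone, with equal spread and with the run, 2 with the other experiments subtracted, 3 with that probe and 2 with the replicate block (ISG20, adjusted p = 0.0369). For the super-repressor in OCI-Ly10 (1 called) they were 2 with equal spread and 0 with the other experiments subtracted, that probe or the run. For the inhibitor minus IL-6 (0 called) they were 2 with equal spread and 1 with the replicate block. The causes were not tested.

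With 1 array left out, members called ranged from 8 to 9 for IL-10, 5 to 6 for late minus early, 2 to 3 for IL-10 minus IL-6, 2 to 7 for the super-repressor in OCI-Ly3, 0 to 1 for the inhibitor, the siRNA and the inhibitor minus IL-6, and were 0 for the super-repressor in OCI-Ly10, 0 between lines and 2 for IL-6. The replicate block was not possible for the super-repressor in OCI-Ly10, which had 1 array at each time, and its arrays alone leave no residual degrees of freedom. Beyond the calls named in the text and above, the replicate block changed no call of a member.

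2 called values turned sign, both for ISG20 with the other experiments subtracted: -0.088 for the super-repressor in OCI-Ly3 and -0.0096 for the inhibitor. All other turns of sign were of values not called. With the other 5 experiments subtracted they were, for the super-repressor in OCI-Ly10, IFI44L 0.077, IFITM3 -0.057, MX1 0.10, PARP9 -0.0067 and UBE2L6 -0.13. In OCI-Ly3 they were IFI44L 0.095 and IFITM3 -0.22. For the inhibitor they were IFI44L 0.057, NMI -0.059 and OAS1 -0.13. For IL-6 they were IFITM3 -0.19, PARP9 -0.11 and UBE2L6 -0.10. For the siRNA they were IFITM3 -0.066, ISG20 -0.048, NMI -0.040, OAS1 -0.045 and UBE2L6 -0.013. For IL-10 it was OAS1 -0.099.

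With the probe that had the most values they were, for the super-repressor in OCI-Ly10, IRF1 0.0043 and MX1 0.11, and between lines IRF9 -0.17 and ISG20 -0.012. They were OAS1 -0.026 for IL-10, IRF1 0.065 for late minus early, MX1 -0.10 for IL-10 minus IL-6 and MX1 -0.13 for the inhibitor minus IL-6. They were OAS1 -0.14 for the inhibitor and -0.012 for the siRNA. With equal spread they were IRF1 -0.050 for the inhibitor and ISG20 -0.021 between lines. Without centring they were IRF1 -0.0024 for the inhibitor and NMI -0.004 for the inhibitor minus IL-6.

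Leaving out 1 array turned the sign of no called value. Of values not called it gave, for the inhibitor, IFI44L -0.28 to 0.17, IRF1 -0.042 to 0.053 and NMI -0.010 to 0.17. For the siRNA it gave IRF1 -0.14 to 0.022, PARP9 -0.052 to 0.023 and UBE2L6 -0.065 to 0.30. For IL-6 it gave ISG20 -0.039 to 0.043 and NMI -0.052 to 0.049, and for IL-10 OAS1 -0.087 to 0.077. It gave MX1 -0.014 to 0.19 for IL-10 minus IL-6, and MX1 -0.069 to 0.12 and NMI -0.088 to 0.091 for the inhibitor minus IL-6. Between lines it gave IFI44L -0.084 to 0.057, ISG20 -0.0023 to 0.049 and NMI -0.0012 to 0.15, and in OCI-Ly10 UBE2L6 -0.022 to 0.082 for the super-repressor.

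Counts over all genes moved more. For IL-10 1548 genes were called, 1031 alone and 765 with the other experiments subtracted. For IL-6 150 were called, 32 with the run, 71 alone, 83 with 1 probe, 237 with the others subtracted, 314 with the replicate block and 455 with equal spread. For the inhibitor 146 were called, 12 alone, 77 with the run, 232 with equal spread and 260 with the replicate block. For the siRNA 144 were called, 0 alone by limma (623 had an unadjusted p under 0.05), 48 with the run, 83 with equal spread, 95 with the others subtracted, 257 with 1 probe and 417 with the replicate block. For the super-repressor 616 were called in OCI-Ly3, 103 with the run, 368 alone and 1105 with the replicate block. In OCI-Ly10 24 were called, 5 with the run, 10 with the others subtracted and 238 with equal spread, and between lines 0, and 2 with equal spread. For late minus early 595 were called, 229 alone and 296 with equal spread. For IL-10 minus IL-6 279 were called, 84 with the run, 172 alone and 451 with the replicate block. For the inhibitor minus IL-6 73 were called, 43 with the run, 136 with the replicate block and 176 with equal spread. With 1 array left out the counts ranged from 93 to 147 for IL-6, 44 to 160 for the inhibitor, 21 to 106 for the siRNA, 269 to 957 for the super-repressor in OCI-Ly3, 1 to 17 in OCI-Ly10, 307 to 601 for late minus early and 37 to 79 for the inhibitor minus IL-6.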
